A study of Homo sapiens with 6 samples.

Results

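Chromosome 4 was described gene by gene in SK-N-BE(2), an established human neuroblastoma line with MYCN amplification. The members are the rows of the deposited table that lie on chromosome 4 and have a mean of at least 10 reads over the 6 libraries, which were 443 of the 752 rows on the chromosome and of 19937 rows in all. In the whole series 12618 rows reached that mean. The members were ordered by their listed start and grouped into windows of 10 Mb and into the short arm (145 members, starts below 50 Mb) and the long arm (298 members). The chromosome was chosen because its genes were low in this same contrast, so the regional values below are a description and carry no test.

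The 6 libraries are RNA sequencing libraries from total RNA, 3 titled sgcon and 3 titled sgGPR91. GPR91 is the succinate receptor, encoded by SUCNR1 on chromosome 3, and the guide name sgGPR91 names it as the CRISPR target, with sgcon as the control guide. The genotype tags of the same libraries say the reverse, with sgcon tagged as knockout and sgGPR91 as control, so titles name the groups here, and rises and falls would swap places under the tags. Cells of both groups had a drug for 48 hours before RNA was taken. A label names it doxorubicin (100 nmol/L), the growth protocol writes DOX (1.5 µg/ml), and which dose applied is unsettled. The sources used here do not state whether the 3 libraries of a group came from separate cultures, or whether the cells were a clone or a pool, so the calls measure only the spread between these libraries. SUCNR1 itself had 1, 0 and 2 reads in the sgcon libraries and 1, 0 and 0 in the sgGPR91 libraries, too few to check either label.

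Chromosome 4 carries HAND2, a transcription factor of the sympathetic neuron lineage from which neuroblastoma arises and part of the adrenergic identity of these tumour cells. It also carries cell-cycle genes, ribosomal protein genes, the chemokine, fibrinogen and albumin clusters and long gene-poor stretches. The libraries measure RNA only, and DNA copy number and methylation were not analysed here.

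The promoters of 4 genes, the 2 farthest above and the 2 farthest below their surroundings among those with an entry in the RefSeq promoter table (GRCh38.p14, 250 bases before to 50 after the RefSeq start), are shown because they differ in their content of CpG, the pair of bases at which promoters can be methylated. Each is printed on its gene's own strand with every CpG in capitals. The ARHGAP10 promoter (chr4:147731838-147732137, plus strand) held 36 CpG and was 74.3% G or C, and its RefSeq start lay 25 bases into the gene as listed in the deposited table. The EMCN promoter (chr4:100517973-100518272, minus strand) held 2 CpG, and its start lay 362.1 kb inside the listed gene, so the listed gene begins far upstream of it. The BEND4 promoter (chr4:42152606-42152905, minus strand) held 25 CpG and its start lay 223 bases inside the listed gene. The FAM13A promoter (chr4:89057136-89057435, minus strand) held 6 CpG and its start lay 54.2 kb inside the listed gene.
ARHGAP10: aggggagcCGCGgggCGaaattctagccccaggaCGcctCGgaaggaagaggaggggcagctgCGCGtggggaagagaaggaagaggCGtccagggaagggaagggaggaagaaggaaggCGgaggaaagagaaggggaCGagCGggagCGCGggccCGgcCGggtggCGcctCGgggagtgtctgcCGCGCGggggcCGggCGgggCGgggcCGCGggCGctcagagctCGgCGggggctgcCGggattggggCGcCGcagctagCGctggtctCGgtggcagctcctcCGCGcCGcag
EMCN: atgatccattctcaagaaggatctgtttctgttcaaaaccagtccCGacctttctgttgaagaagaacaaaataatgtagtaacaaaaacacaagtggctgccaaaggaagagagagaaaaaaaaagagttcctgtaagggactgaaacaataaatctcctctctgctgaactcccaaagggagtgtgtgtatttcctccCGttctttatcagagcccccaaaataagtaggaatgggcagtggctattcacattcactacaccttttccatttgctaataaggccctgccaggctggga
BEND4: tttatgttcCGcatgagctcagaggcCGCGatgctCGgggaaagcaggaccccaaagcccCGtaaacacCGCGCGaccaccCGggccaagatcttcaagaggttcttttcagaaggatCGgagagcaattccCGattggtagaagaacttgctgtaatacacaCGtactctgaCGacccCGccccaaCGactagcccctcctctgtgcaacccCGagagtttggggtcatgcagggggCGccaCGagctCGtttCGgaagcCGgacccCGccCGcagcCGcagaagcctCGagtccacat
FAM13A: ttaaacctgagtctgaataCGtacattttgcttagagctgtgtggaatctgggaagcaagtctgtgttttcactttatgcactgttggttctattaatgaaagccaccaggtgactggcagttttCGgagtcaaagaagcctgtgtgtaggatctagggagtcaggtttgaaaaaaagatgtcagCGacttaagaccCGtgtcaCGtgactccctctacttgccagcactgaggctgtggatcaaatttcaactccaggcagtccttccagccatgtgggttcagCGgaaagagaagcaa

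Genes along chromosome 4 were lower in the sgGPR91 libraries than in the sgcon libraries over most of its length. The median log2 fold change over the 443 members was -0.34, with quartiles of -0.64 and -0.04, against -0.01 over all 12701 genes tested. In fold terms the median member was 1.26-fold lower, a small shift spread over many genes. A gene is said below to have risen or fallen where edgeR's quasi-likelihood test gave an adjusted p under 0.05 over all genes tested. By that call 239 members fell (54.0%), 44 rose (9.93%) and 160 were not called, beside a background of 21.0% lower and 20.2% higher over the whole table (41.1% in either direction). The CPM values (reads scaled to the size of the library) of the 3 sgGPR91 libraries lay below all 3 sgcon libraries for 257 members (58.0%, background 25.2%) and above them for 51 (11.5%, background 25.7%). RNA came from whole cultures, so fewer cells with a given RNA and less of that RNA per cell cannot be told apart.

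The shift was seen in each library. The members took 3.63%, 3.57% and 3.56% of all reads in the sgcon libraries and 2.90%, 2.98% and 2.95% in the sgGPR91 libraries. Without the single gene ARHGAP10, the sgGPR91 shares were 2.77%, 2.80% and 2.79%. The level of a library, taken as the median over members of log2 CPM minus the sgcon mean of each gene, was 0.04, -0.01 and -0.03 in sgcon and -0.31, -0.35 and -0.34 in sgGPR91. The sgGPR91 libraries lay close together and did not overlap the sgcon libraries. Among chromosomes 1 to 22 and X, chromosome 4 had the lowest median, and chromosome 17 was next at -0.15.

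The long arm was lower than the short arm. The short arm had a median log2 fold change of -0.14, with 55 members that fell (37.9%) and 21 that rose (14.5%) of 145. The long arm had a median of -0.45, with 184 that fell (61.7%) and 23 that rose (7.72%) of 298. Over all genes tested 21.0% fell and 20.2% rose. The short-arm levels were 0.01, -0.01 and 0.03 in sgcon against -0.14, -0.14 and -0.16 in sgGPR91. On the long arm they were 0.05, -0.00 and -0.05 against -0.42, -0.44 and -0.46. On both arms the groups did not overlap.

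**Figure D1:**
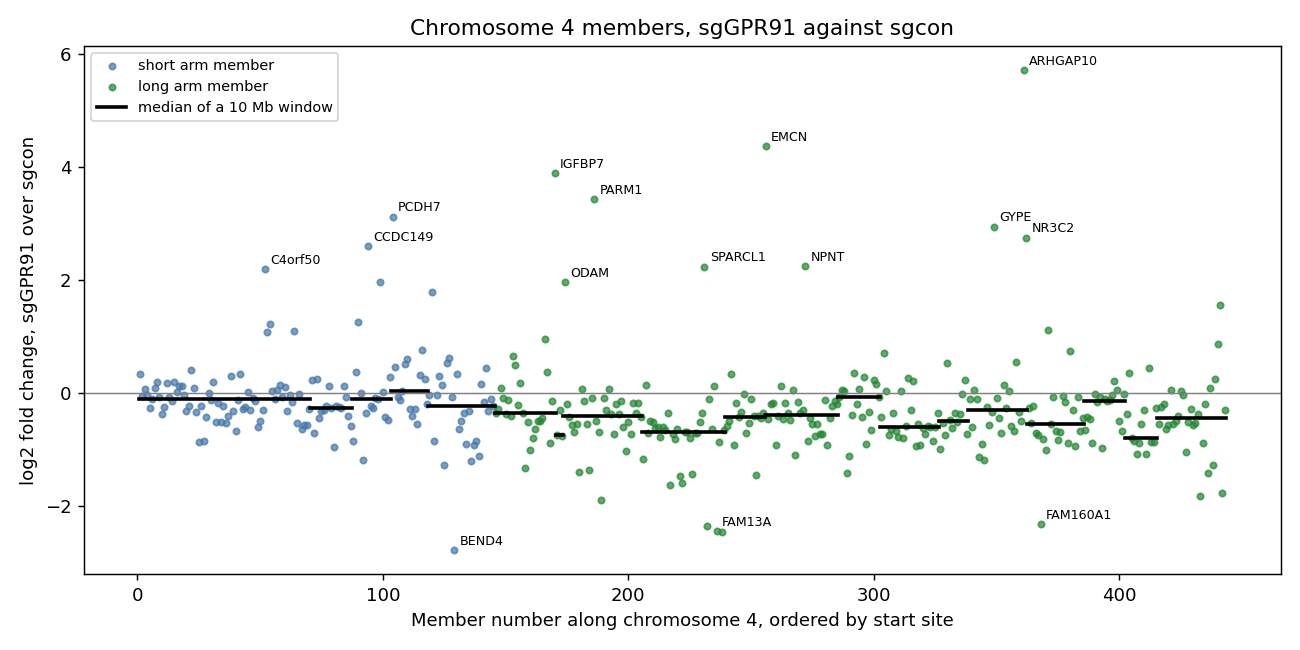
The log2 fold change (sgGPR91 over sgcon, y axis) of each of the 443 members in order of start site (x axis), short arm in blue and long arm in green, with the median of each 10 Mb window as a black line. The lines lie near -0.12 at the left end and below -0.3 over most of the long arm, while ARHGAP10 stands far above at 5.72 and BEND4 lowest at -2.79.

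Of the 19 windows of 10 Mb, 18 held at least 10 members, and the median was below 0 in 17 of them. The sgGPR91 levels were below every sgcon level in 15 of the 18. The counts that fell and rose in each window below stand beside 21.0% and 20.2% over all genes tested. Of all 288 windows of that size with at least 10 tested genes on any chromosome, the 28 lowest by median include 14 that are on chromosome 4. A median below -0.3 was found in 15 windows, 11 of them on chromosome 4. The lowest of all was not on chromosome 4 but on chromosome 10 (120 to 130 Mb, 33 genes, median -0.96).

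Over the first 40 Mb of the short arm the 4 window medians lay between -0.26 and 0.04. The terminal window (0 to 10 Mb, 70 members, the most gene-rich) had a median of -0.12, with 23 genes that fell and 5 that rose. Its levels were -0.09, -0.01 and 0.08 in sgcon and -0.08, -0.18 and -0.15 in sgGPR91, so the groups overlapped there. The window from 10 to 20 Mb had a median of -0.26 (10 fell, 1 rose of 17). From 20 to 30 Mb the median was -0.10, with 6 that fell and 5 that rose of 16, and the sgGPR91 levels of -0.23, -0.01 and -0.07 reached into the sgcon range. The window from 30 to 40 Mb was the only one with a median above 0, at 0.04, and 7 of its 15 members rose while 5 fell.

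The level fell from there into the long arm. The medians were -0.24 from 40 to 50 Mb (27 members) and -0.36 from 50 to 60 Mb (25 members). The window from 60 to 70 Mb had 29 rows but only 3 members, and all 3 fell. They were CENPC, a kinetochore protein that binds centromeric chromatin (log2 fold change -0.75 ± 0.10, SE), UBA6, a ubiquitin-activating enzyme (-0.31 ± 0.09), and YTHDC1, a nuclear reader of methylated adenosine in RNA (-0.76 ± 0.07). From 70 to 80 Mb the median was -0.41, with 21 that fell and 2 that rose of 32.

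The window from 80 to 90 Mb had the lowest median of those with more than 20 members. That median was -0.70 with quartiles of -0.86 and -0.53, and 26 of 34 members fell while 1 rose. The levels were 0.08, -0.02 and -0.05 in sgcon against -0.64, -0.64 and -0.70 in sgGPR91. It contains the longest unbroken stretch of negative values on the chromosome, 23 consecutive members from HNRNPD to NUDT9 (82.4 to 87.5 Mb) with a median of -0.70 and none above -0.35. That stretch includes the RNA-binding proteins HNRNPD and HNRNPDL, the COPII coat protein SEC31A, the helicase HELQ and the homeobox factor NKX6-1.

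Toward the end of the long arm the window medians varied between -0.81 and -0.08, all below 0. The medians were -0.43 from 90 to 100 Mb, -0.39 from 100 to 110 Mb and -0.08 from 110 to 120 Mb (7 fell, 2 rose of 17). In that last window the levels were 0.04, -0.05 and 0.01 in sgcon and -0.18, -0.24 and -0.15 in sgGPR91, which do not overlap. They were -0.60 from 120 to 130 Mb, -0.50 from 130 to 140 Mb, -0.31 from 140 to 150 Mb and -0.56 from 150 to 160 Mb. From 160 to 170 Mb the median was -0.15 (7 fell, 0 rose of 17). The lowest window was 170 to 180 Mb at -0.81 (9 fell, 1 rose of 13), and the terminal window from 180 to 190 Mb had -0.45 (15 fell, 2 rose of 28). The longest run of consecutive members that all fell was 13 genes from INTU to PCDH18 (127.6 to 137.5 Mb), with values from -0.99 to -0.36, and includes PLK4, the kinase that licenses centriole duplication. A second run of 9 went from CLOCK, the circadian transcription factor, to SRP72, a subunit of the signal recognition particle (55.4 to 56.5 Mb), and CLOCK lost its call without sgGPR91 replicate 3 (-0.33). No run of consecutive members that rose was longer than 3.

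**Figure D2:**
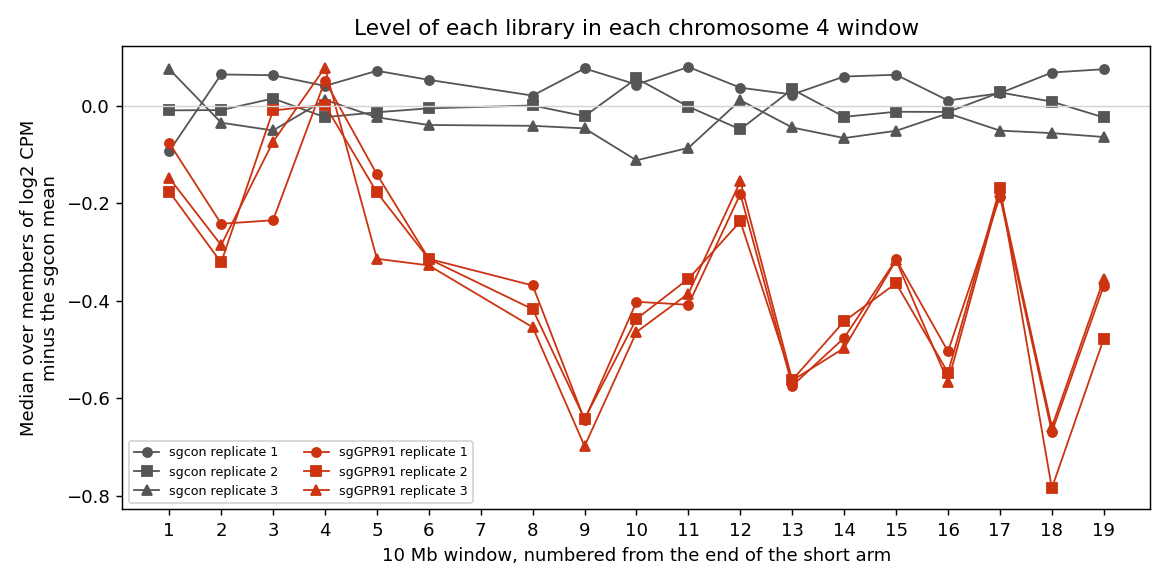
The level of each library (y axis, median over the window's members of log2 CPM minus the sgcon mean) in each 10 Mb window numbered from the end of the short arm (x axis), sgcon in grey and sgGPR91 in red with a marker per replicate number. The sgcon lines stay between -0.11 and 0.08, and the sgGPR91 lines lie below them in most windows, down to -0.78 in window 18, and meet them in windows 1, 3 and 4; window 7 has 3 members and is not drawn.

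Some typical genes show what the regional level looked like in reads. From each window, the member with at least 100 reads on average whose value lay nearest to the window median was taken. SPATA5, an AAA ATPase gene at 120 to 130 Mb, had 26.8, 26.8 and 26.8 CPM in sgcon and 17.8, 17.8 and 17.6 in sgGPR91, and fell by 0.60 ± 0.11 on the log2 scale. MAPK10, a neuronal JNK kinase at 80 to 90 Mb, had 35.5, 32.0 and 30.0 CPM against 21.5, 19.97 and 18.9, a log2 fold change of -0.69 ± 0.11. All sgGPR91 libraries were below all sgcon libraries for both genes. KLF3, a zinc finger repressor at 30 to 40 Mb, had 67.8, 58.7 and 55.5 CPM against 62.7, 60.5 and 63.8, which overlap (log2 fold change 0.04 ± 0.09). PALLD, an actin-associated protein at 160 to 170 Mb, had 79.9, 74.4 and 83.2 CPM against 73.0, 70.8 and 73.4, a small separation that was not called (-0.13 ± 0.08).

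The most abundant transcript per length of each window fell in 12 of 18 windows and rose in 3. Over all genes tested 21.0% fell and 20.2% rose. The choice was by mean FPKM over all 6 libraries, so a gene high in only one group, as ARHGAP10 was in sgGPR91, can be picked for that. These counts are therefore a description only. CEP44, a centrosomal protein gene at 170 to 180 Mb, had 245.5 FPKM on average in sgcon and 199.97 in sgGPR91, and UCHL1, a neuronal ubiquitin hydrolase, had 225.4 and 279.2. CEP44 had 1801, 1755 and 1680 CPM in sgcon against 1326, 1495 and 1416 in sgGPR91 and fell by 0.31 ± 0.08. UCHL1 went the other way, with 521.9, 506.0 and 471.0 CPM against 617.8, 613.2 and 613.9 and a log2 fold change of 0.30 ± 0.07. Neither pair of groups overlapped. RPS3A, a protein of the small ribosomal subunit, came next among these by sgcon level (199.3 FPKM) and had 510.2, 467.3 and 393.5 CPM against 292.3, 270.6 and 270.4, a log2 fold change of -0.72 ± 0.09.

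The median was -0.31 or lower in every class of level, gene span and strand. Members in the lowest, middle and highest groups of equal size by mean FPKM had median log2 fold changes of -0.36, -0.31 and -0.36. By genomic span from short to long the medians were -0.31, -0.31 and -0.43. Genes on the plus strand had a median of -0.31 and genes on the minus strand -0.36. All genes tested, grouped in the same way but with their own limits of level and span, had medians between -0.02 and 0.03. All 443 members were found in GENCODE version 29 as protein-coding genes of chromosome 4 on the same strand, and 58.7% had the same start there.

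The members were also read by role, in 13 lists of chromosome 4 genes. Counts in the lists stand beside 54.0% lower and 9.93% higher over all members, and 21.0% and 20.2% over all genes tested. Whether any list differed from the rest of the chromosome was not tested. HAND2, a basic helix-loop-helix factor of sympathetic neurons (ENSG00000164107, 173524969 to 173530229), had 584.7, 563.9 and 499.0 CPM against 304.1, 286.0 and 299.5. Its log2 fold change was -0.89 ± 0.08, within 0.20 of its window. LDB2, a LIM-domain binding cofactor, fell by 0.96 ± 0.11, and HMX1, a homeobox factor of the sensory and sympathetic lineage, was not called (-0.28 ± 0.12). For HAND2 and LDB2 the groups did not overlap.

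Other markers of the line moved beside these. The summed CPM of 13 adrenergic neuroblastoma markers, HAND2 among them, ran from 7204 to 8078 in sgcon and from 5502 to 5924 in sgGPR91, and all 13 reached a mean of 10 reads. MYCN alone went from a mean of 2769 to 1690 CPM, while the means of ELAVL4 (215.1 and 309.2), CHGB (195.7 and 253.5) and PHOX2A (620.9 and 642.1) were higher in sgGPR91. The sum of 8 mesenchymal-state markers, all of which reached that mean, ran from 1408 to 1469 and from 1541 to 1574. The 5 fibroblast markers all reached the mean too (868.8 to 951.9 against 832.9 to 837.9). Of 4 Schwann cell markers 2 reached it (3.47 to 5.27 against 6.92 to 9.09), and of 4 epithelial markers 1 did (11.97 to 16.8 against 7.26 to 9.09). No leukocyte marker of 4 did, with CD3E, CD68 and LYZ at 0 reads, nor any hepatocyte marker of 6, with AFP, FGA, FGB and FGG at 0. The part of these differences in the chromosome 4 values was not tested.

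Genes of cell division fell in 17 of 19 members, with 0 that rose and a median log2 fold change of -0.47. CCNI, an atypical cyclin, had 715.1, 734.9 and 661.8 CPM in sgcon and 455.1, 464.8 and 459.8 in sgGPR91, a log2 fold change of -0.61 ± 0.07. NCAPG, a condensin subunit, fell by 0.41 ± 0.07, and PDS5A, a cohesin regulator, by 0.20 ± 0.06. The PDS5A call ended without sgGPR91 replicate 2 (-0.21) or 3 (-0.20). Outside the naming rule, some of the members that fell were picked after their values were seen. They were CENPU (-1.04 ± 0.09), PLK4 (-0.93 ± 0.10), CCNA2 (-0.64 ± 0.09), CENPE (-0.47 ± 0.07) and MAD2L1 (-0.43 ± 0.10). The list also held 2 members that were not called. CCNA2 overlaps EXOSC9 and CENPU overlaps PRIMPOL on the other strand.

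DNA repair and translation genes followed the same direction. Of 7 repair genes 5 fell and 0 rose, with a median of -0.49, among them RFC1, the large subunit of the clamp loader (-0.42 ± 0.07), and ABRAXAS1, a scaffold of a BRCA1 complex (-0.65 ± 0.10). SMARCAD1, a remodeller used at DNA ends, fell by 0.49 ± 0.08, whereas RNF4, a SUMO-targeted ubiquitin ligase near the short-arm end, was not called (0.20 ± 0.08). Of 14 ribosome and translation genes 12 fell and 0 rose, with a median of -0.49. RPL34 had 347.0, 301.3 and 259.0 CPM against 196.8, 171.7 and 179.6 (-0.73 ± 0.09), and RPL9, at 30 to 40 Mb where the region was not low, fell by 0.29 ± 0.09. The RPL9 call ended without sgcon replicate 1 (-0.19) or without sgGPR91 replicate 2 or 3 (both -0.27). DHX15, a splicing helicase kept on this list, fell by 0.36 ± 0.07.

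Transcription and chromatin regulators fell in 13 of 23 members and rose in 1, with a median of -0.37. Over all members 54.0% fell and 9.93% rose, with a median of -0.34, so this list lay near the chromosome level. HMGB2, a high mobility group protein of proliferating cells, had 461.3, 456.4 and 396.2 CPM against 251.9, 252.0 and 246.1, and fell by 0.81 ± 0.07. RBPJ, the DNA-binding partner of Notch, fell by 0.44 ± 0.08, NSD2, a histone lysine methyltransferase, by 0.34 ± 0.08, and SMARCA5, an ISWI remodeller, by 0.33 ± 0.08. The 1 that rose was NR3C2, described with ARHGAP10. Mitochondrial and metabolic enzymes fell in 13 of 24 and rose in 1 (SLC7A11), with a median of -0.28. PAICS and PPAT, neighbours that carry out steps of purine synthesis, fell by 0.50 ± 0.08 and 0.50 ± 0.07, and ADH5, the formaldehyde-clearing dehydrogenase, by 0.54 ± 0.08. MSMO1, a sterol oxidase, was not called (-0.17 ± 0.11).

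The signalling list had the highest median of the 13 lists. Of 18 growth factor, receptor and adaptor genes 6 fell and 4 rose, with a median of 0.08. BMPR1B, a BMP receptor kinase, had 165.9, 167.1 and 149.1 CPM in sgcon and 91.0, 81.7 and 82.1 in sgGPR91 (-0.92 ± 0.07), and RGS12 (-0.68 ± 0.09) and the adaptor GAB1 (-0.57 ± 0.08) also fell. The 4 that rose were ARHGAP10, PPP2R2C, EDNRA and PDGFRA, the last 3 with log2 fold changes of 1.22 ± 0.14, 0.54 ± 0.11 and 0.64 ± 0.21. A difference between this list and the others was not tested.

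Neuronal and synaptic genes fell in 9 of 19 and rose in 3 (UCHL1, KCNIP4 and ANK2), with a median of -0.27. UNC5C, a netrin receptor, fell by 0.18 ± 0.07, while LIMCH1 (0.13 ± 0.07), SEPTIN11 (-0.14 ± 0.07) and CPE, the carboxypeptidase of neuropeptide granules (-0.08 ± 0.07), were not called. Of 32 genes of protein turnover and membrane traffic 20 fell and 5 rose, with a median of -0.33. SEC31A fell by 0.61 ± 0.07, the chloride exchanger CLCN3 by 0.50 ± 0.07, the ubiquitin-conjugating enzyme UBE2D3 by 0.41 ± 0.07 and the lysosomal receptor SCARB2 by 0.20 ± 0.07. The calls of UNC5C (-0.20 to -0.15) and SCARB2 (-0.21 to -0.19) each ended without sgcon replicate 2 or without any 1 of the sgGPR91 libraries. The 5 that rose were UBE2K, KLHL5, WFS1, SEL1L3 and SPCS3.

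The protocadherin and FAT cadherin genes split. PCDH7 rose by 3.12 ± 0.18, FAT1 fell by 1.77 ± 0.41, PCDH10 by 0.99 ± 0.30 and PCDH18 by 0.75 ± 0.10, and FAT4 was not called (0.21 ± 0.12). With limma on log2(FPKM + 1) the FAT1 value was -0.15 and its call ended, as did that of PCDH10 (-0.23), and with log2(FPKM + 0.1) FAT1 was at -0.82. The PCDH10 call also ended without sgcon replicate 2 (-0.74) or sgGPR91 replicate 3 (-0.92). Of the zinc finger genes, 2 of 7 fell (ZNF330, -0.91 ± 0.09, and ZNF518B, -0.71 ± 0.10) and 0 rose, and the short-arm terminal genes ZNF141 (-0.04 ± 0.09) and ZNF721 (-0.27 ± 0.11) were not called. Few genes of the immune and liver clusters were read. Of 22 chemokine, interleukin and Toll-like receptor genes only 2 had a mean of at least 10 reads, and both fell. CXCL8, the neutrophil chemokine interleukin 8, had 30.6, 33.5 and 29.1 CPM against 13.3, 12.2 and 10.9 (-1.36 ± 0.12), and IL15 had 6.15, 6.03 and 5.55 against 2.50, 1.33 and 3.89 (-1.20 ± 0.31). Of 19 liver and secretory cluster genes 1 was a member, ADH6, which was not called (-0.12 ± 0.41).

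A member was taken to depart from its region when its log2 fold change lay at least 1 away from the median of the other members of its 10 Mb window and its libraries did not overlap between the groups after each library's own window level was subtracted. By that rule 42 of the 440 members in windows of at least 10 departed (9.55%, against 6.60% by the same rule over 12496 genes of all windows). Of these, 26 were above their window (5.91%, background 3.72%) and 16 below it (3.64%, background 2.88%). The lower genes were all called lower, and of the higher genes 25 were called higher. The exception was GALNT7, whose log2 fold change of 0.35 ± 0.16 was not called and whose window lay at -0.83. For KLKB1 and MTTP the difference was past 1 but the libraries overlapped. Of the 42, 23 had a mean under 100 reads, 16 of the higher and 7 of the lower genes. The read minimum is a mean over both groups, so a gene near 0 in one group can be a member through the other alone. Among others, EMCN, IGFBP7, NR3C2, CCDC149, GYPE and NPNT had a mean under 10 reads in sgcon and are members only through their sgGPR91 reads. GPRIN3 and FAT1 had a mean under 10 reads in sgGPR91 and are members only through their sgcon reads. The counts above and below are therefore a description and carry no test.

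At the edge of that rule, PDGFRA (0.999 from its window), CXCL8 (-0.977) and HPSE (-0.941) lay just outside and ATP10D (-1.01), NMU (-1.01) and CCDC110 (-1.02) just inside. At the edge of the read minimum, KLKB1 (mean 10.5 reads), FGF5 (11.3) and MTTP (11.7) were just inside, and GNRHR (9.83), LRRC66 (9.50) and TRIM61 (9.50) just outside.

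ARHGAP10, a GTPase-activating protein also known as GRAF2 (ENSG00000071205, 147732063 to 148072776, plus strand), stood farthest from its region. It had 262, 305 and 226 reads in the sgcon libraries and 11955, 14700 and 13868 in the sgGPR91 libraries. In CPM this was 29.3, 30.2 and 31.4 against 1357, 1779 and 1636, with no overlap. Its log2 fold change of 5.72 ± 0.12 was 6.05 above the median of its window. Per length its level went from 2.81 to 148.3 FPKM, from a modest transcript to the most abundant of its window.

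Most genes around ARHGAP10 were at or below 0. TMEM184C, a transmembrane protein gene starting at -114.7 kb from its start, fell by 0.34 ± 0.08, which is also the chromosome median, and PRMT9, an arginine methyltransferase at -94.3 kb, fell by 0.50 ± 0.14. EDNRA, the endothelin A receptor at -251.1 kb, had 22.7, 20.8 and 18.0 CPM against 30.8, 28.3 and 30.9 and rose by 0.54 ± 0.11. LSM6 (-0.59 ± 0.18) and SLC10A7 (-0.68 ± 0.14), at -1556 and -1478 kb, fell. NR3C2, the mineralocorticoid receptor (ENSG00000151623, 148078762 to 148444698, minus strand), ends 5.99 kb past the listed end of ARHGAP10, and the pair run toward each other. It had 9, 6 and 4 reads in sgcon and 46, 30 and 50 in sgGPR91, or 1.01, 0.594 and 0.555 CPM against 5.22, 3.63 and 5.90, and rose by 2.74 ± 0.37. The strand used in counting is not stated, so whether reads past the end of ARHGAP10 entered the NR3C2 count was not tested. Farther on, at 3677 and 4887 kb, FAM160A1 (-2.33 ± 0.13) and TMEM154 (1.11 ± 0.39) departed from their window. The members next beyond NR3C2 were nearer the regional level. DCLK2 was at -0.27 ± 0.10, LRBA at -0.54 ± 0.07 and RPS3A at -0.72 ± 0.09, and MAB21L2 was not called (-0.23 ± 0.10). Some of these small differences lost their call with 1 library left out: LSM6 without sgcon replicate 1 (-0.44) or sgGPR91 replicate 3 (-0.45), PRMT9 without sgcon replicate 1 (-0.34), and DCLK2 without sgcon replicate 2 or 3 or sgGPR91 replicate 1 or 2 (-0.30 to -0.19).

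**Figure D3:**
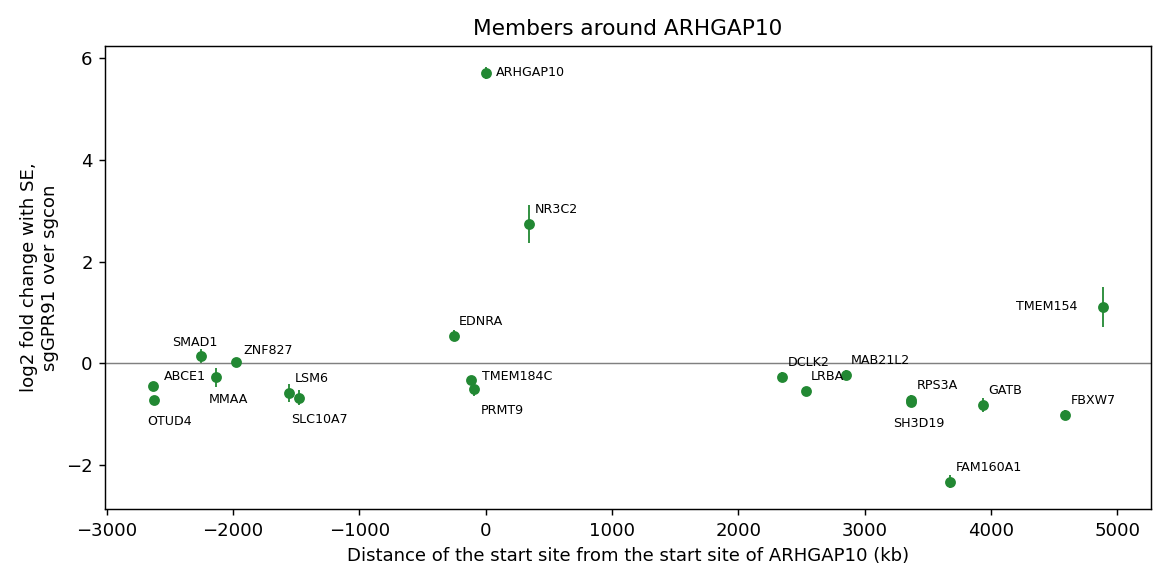
The log2 fold change with its SE (y axis) of the members around ARHGAP10 by the distance of their start from its start (x axis, kb). ARHGAP10 at 5.72 and NR3C2 at 2.74 stand above, and most others lie between 0 and -1.02, with FAM160A1 lowest at -2.33.

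Several other genes departed upward from a low level in sgcon. EMCN, the endothelial sialomucin endomucin (ENSG00000164035, 100395341 to 100880126), had 0, 5 and 2 reads in sgcon and 55, 42 and 50 in sgGPR91. In CPM that was 0, 0.495 and 0.277 against 6.24, 5.08 and 5.90, a log2 fold change of 4.36 ± 0.47. IGFBP7, a secreted binding protein for insulin-like growth factors, had 2, 2 and 5 reads against 53, 40 and 43 and rose by 3.89 ± 0.42. The groups did not overlap for either gene, and IGFBP7 overlaps POLR2B on the other strand, which cannot be told apart without strand. SPARCL1, a secreted matricellular protein also called hevin, had 3.69, 2.97 and 3.88 CPM against 17.8, 15.6 and 15.8 (2.23 ± 0.18), in a window at -0.70. NPNT, the basement membrane ligand nephronectin, had 0.783, 0.890 and 0.694 CPM against 5.22, 2.54 and 3.66 (2.24 ± 0.39) and overlaps INTS12. ODAM, a secreted protein of the enamel organ, had 5.59, 3.17 and 2.91 CPM against 16.5, 12.3 and 16.9 (1.96 ± 0.23).

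PARM1 and PCDH7, both membrane protein genes, also departed upward. PARM1, a mucin-like membrane protein (ENSG00000169116, 74933095 to 75050115), had 5.93, 8.51 and 6.94 CPM in sgcon and 84.0, 70.8 and 76.7 in sgGPR91. It rose by 3.42 ± 0.13, from 7.12 ± 1.30 to 77.2 ± 6.61 CPM (SD, n = 3). PCDH7, the protocadherin (ENSG00000169851, 30720415 to 31146805), had 3.02, 3.26 and 4.72 CPM against 32.6, 26.7 and 34.8 and rose by 3.12 ± 0.18. The groups were far apart for both genes. GYPE, a glycophorin gene with 0.895, 0.297 and 0.416 CPM against 3.97, 4.24 and 4.37 (2.94 ± 0.40), belongs to a family of near-identical copies, so its reads may be shared with them. CCDC149 rose by 2.59 ± 0.47 from 4, 6 and 1 reads, and C4orf50 by 2.19 ± 0.22 from 18, 28 and 22 reads to 95, 108 and 100.

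C4orf50 forms part of the only place with 3 neighbouring genes that departed upward. The next members are WFS1, the endoplasmic reticulum protein wolframin, 69.3 kb on, and PPP2R2C, a regulatory subunit of protein phosphatase 2A, a further 17.3 kb on. WFS1, outside the naming rule and chosen after its values were seen, had 17.7, 17.6 and 19.6 CPM against 39.5, 34.6 and 41.5 (1.08 ± 0.11). PPP2R2C had 7.72, 8.21 and 9.71 CPM against 20.1, 19.7 and 19.7. None of the 3 overlapped between groups, in a window at -0.12. C4orf50 also overlaps JAKMIP1.

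Other genes that departed upward, named after their values were seen, include 3 with more reads. SEL1L3 had 17.002, 19.2 and 19.1 CPM against 72.5, 69.3 and 74.8 (1.97 ± 0.09), and overlaps SMIM20. SPCS3, a signal peptidase subunit, had 121.9, 132.6 and 138.2 CPM against 186.3, 170.8 and 173.0. It rose by only 0.43 ± 0.07, but its window lay at -0.83, so it stood 1.26 above it. SLC7A11, the cystine transporter of the xCT system, had 34.9, 26.3 and 41.9 CPM against 48.5, 48.3 and 50.9 (0.53 ± 0.13) in a window at -0.52. Of the same kind, RBM47, TMEM154, CYP4V2, CTSO, KCNIP4, ARL9 and SORCS2 rose by 0.74 to 1.79 on the log2 scale.

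Of the 16 genes that departed downward, BEND4 and FAM160A1 lay farthest below their windows. BEND4, a gene for a BEN-domain protein (ENSG00000188848, 42110853 to 42152878), had 86.7, 81.7 and 94.5 CPM in sgcon and 12.7, 11.98 and 13.2 in sgGPR91. It fell by 2.79 ± 0.10, or 6.91-fold, from 87.6 ± 6.43 to 12.6 ± 0.621 CPM (SD, n = 3), in a window whose other members had a median of -0.20. FAM160A1, a gene for a FHIP family protein (ENSG00000164142, 151409176 to 151670503), had 85.9, 78.7 and 91.6 CPM against 12.4, 20.3 and 18.3 and fell by 2.33 ± 0.13. Both genes were far apart between groups in every library.

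FAM13A, SPP1 and GPRIN3 lie in the low window from 80 to 90 Mb and were lower still. FAM13A, a protein with a GTPase-activating domain, had 34.0, 31.6 and 32.7 CPM against 5.79, 5.45 and 6.73 and fell by 2.45 ± 0.14 against a window level of -0.69. SPP1, the secreted phosphoprotein osteopontin, had 10.3, 13.0 and 9.71 CPM against 1.70, 1.45 and 3.30 (-2.35 ± 0.27). GPRIN3, a regulator of neurite outgrowth, had 42, 35 and 42 reads against 15, 3 and 3 (-2.47 ± 0.45), so its sgGPR91 level rests on few reads. SPP1 is the next member after SPARCL1, which rose, with a gap of 444.6 kb. Of the 5 pairs of adjacent members that both departed, this was the 1 pair with opposite directions.

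The other downward genes named by the rule differed by less. CDKL2, a cyclin-dependent-kinase-like kinase, had 17.9, 15.0 and 14.8 CPM against 2.84, 5.45 and 4.60 and fell by 1.90 ± 0.21. ANKRD37, a hypoxia-responsive gene, had 13.1, 15.3 and 5.83 CPM against 2.50, 3.63 and 3.66 (-1.83 ± 0.31), with a wide spread in sgcon, and it overlaps UFSP2. TIFA, an adaptor of NF-kappa-B signalling that overlaps ALPK1, had 8.72, 6.03 and 6.80 CPM against 1.36, 4.24 and 2.48 (-1.42 ± 0.32). FAT1, a giant cadherin, had 2.35, 3.56 and 2.08 CPM against 0.681, 0.605 and 1.06. None of these groups overlapped. PPARGC1A, the coactivator of mitochondrial biogenesis, had 24.6, 20.8 and 21.6 CPM against 8.40, 12.2 and 8.73 (-1.19 ± 0.16), and ZGRF1, a helicase of crossover repair, had 106.2, 95.0 and 93.9 against 38.5, 49.0 and 47.7 (-1.13 ± 0.09). The last 4 downward genes, SLC4A4, CCDC110, NMU and ATP10D, fell by 1.21 to 1.42 on the log2 scale and lay within 0.02 of the minimum distance from their windows.

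**Figure D4:**
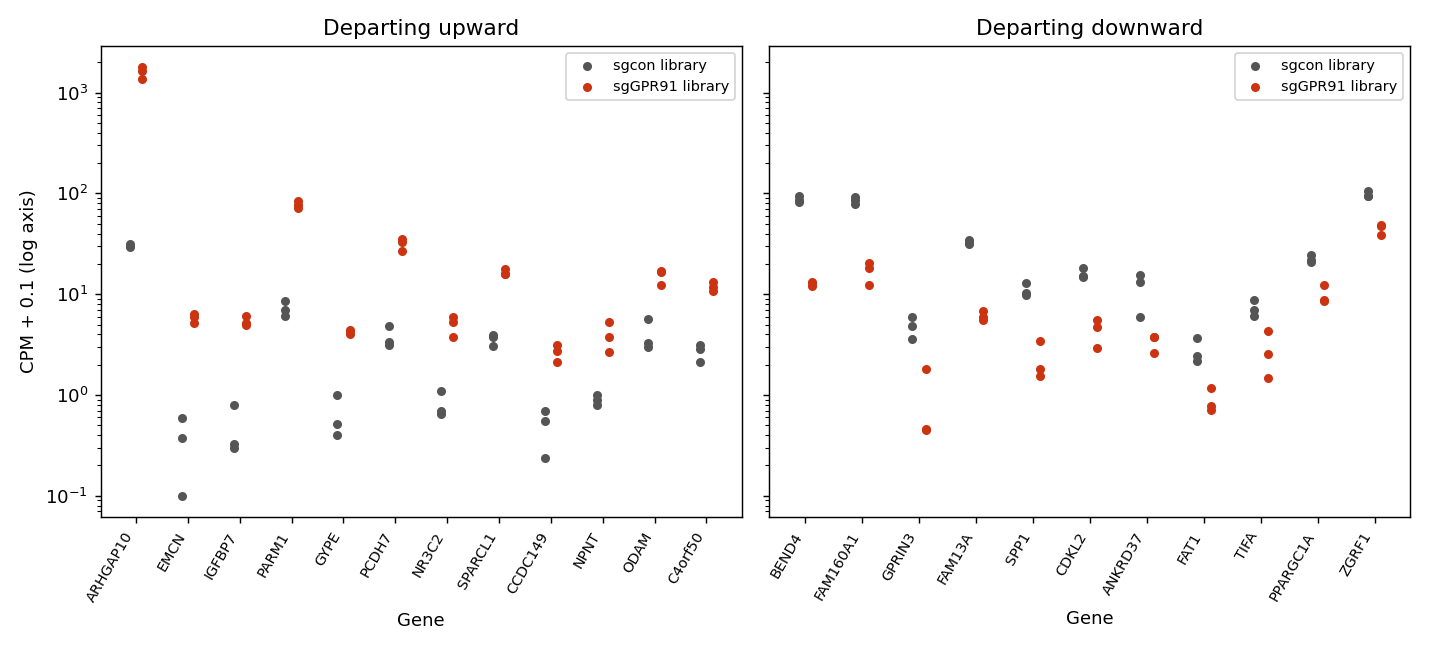
CPM + 0.1 on a log axis (y axis) of the 12 genes highest above (left) and 11 of the 12 lowest below (right) their windows, sgcon libraries in grey and sgGPR91 libraries in red. In each gene the 3 points of one group lie apart from the 3 of the other, and ARHGAP10 reaches over 1357 CPM in sgGPR91 while EMCN has a sgcon library at 0.

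The promoter table held 381 of the 443 members. Their promoters had a median of 27 CpG in 300 bases, against 14 over all 27305 promoters of the table. The members passed a read minimum and the whole table did not, so chromosome and read level cannot be told apart in this difference. Promoters of genes with as many reads on other chromosomes were not compared. Promoters of genes departing upward had a median of 18 CpG (21 matched genes), those departing downward 25 (13 matched) and the other members 27. Of the 26 upward genes 16 had a mean under 100 reads, so departure and read level cannot be told apart here. The upward genes hold both extremes shown above, with 36 CpG in ARHGAP10 and 2 in EMCN. The E-box CACGTG, the letters that MYC family proteins bind and the same on both strands, occurred in 12.6% of the members' promoters and in 7.43% of all promoters of this length. As for CpG, chromosome and read level cannot be told apart in these shares. It was found in 1 of the 21 upward genes (ARL9) and in 3 of the 13 downward genes (PPARGC1A, FAM13A and ANKRD37), and it can be read in the FAM13A sequence printed above. A match is a run of letters only, and binding was not measured.

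Lower levels by region were also present on parts of chromosomes 17 and 10. The 272 genes of chromosome 17 from 50 Mb, 271 of them tested, had a median log2 fold change of -0.31. Of these 137 fell (50.6%) and 17 rose (6.27%), beside 21.0% and 20.2% over all genes tested. The 70 genes at the distal end of chromosome 10 had a median of -0.30 with a lower quartile of -0.98, and 36 fell (51.4%) while 6 rose (8.57%). These regions were picked from the same contrast and differences between them and chromosome 4 were not tested. The chromosome 4 long arm had a median of -0.45 and a lower quartile of -0.71.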

How the data were processed

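RNA was measured in 6 libraries of the line SK-N-BE(2), 3 titled sgcon and 3 titled sgGPR91. The deposited table gives raw read counts per gene and FPKM per gene (reads scaled to gene length and to the column total), per the file headers. HISAT2, Bowtie2 and RSEM are named in the submitters' processing notes, with no role or version. The genome build and the strand setting are not given in the sources used here, and coordinates are printed as the table lists them. Total counts ran from 7070189 to 10252425 per library, and counting error is the lower limit on the precision of low genes.

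The counts were fitted with edgeR 4.0.16 in R 4.3.3 over the whole table. After filterByExpr (minimum count 10, minimum total 15) and TMM scaling, a quasi-likelihood test without covariates gave sgGPR91 over sgcon. Calls were made where the Benjamini-Hochberg adjusted p over 12701 genes was under 0.05. The SE is the absolute log2 fold change over the square root of F. Library levels use log2 CPM with a prior count of 2. The arms were divided at 50 Mb, a window edge near the centromere. The scripts were tested on simulated data.

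Named genes are the 12 members farthest above and the 12 farthest below their window, the member of highest FPKM and the one nearest the median (at least 100 reads) in each window, the 4 of highest count in each list, the 5 on each side of ARHGAP10, and SUCNR1. Others are marked as chosen after their values were seen, or are shown as counts or as members of a run. The members and the 13 lists were chosen with earlier results of these data known. Alternatives were DESeq2 1.42.0, limma 3.58.1 on log2 FPKM, other scalings, filters, windows and thresholds, a replicate block, and leaving out each library. Results that need 2 of the genes are not reported here.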

Additional observations from a re-analysis of the deposited data

How the results depend on the processing

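The direction of the chromosome, both arms and the called named genes held under the 19 alternatives, as far as each gives them. With limma on log2(FPKM + 1), a scale that understates the change of low genes, the medians were -0.27 for the chromosome, -0.10 for the short arm and -0.35 for the long arm, and 14 genes departed in place of 42. With log2(FPKM + 0.1) 36 departed. Calls ended with + 1 and + 0.1 for 8 and 6 named genes, MED28, CLOCK, SHROOM3, UNC5C, TRMT10A and DCLK2 in both, and PCDH10 and FAT1 with + 1. A distance of 1.5-fold from the window gave 87 departing genes and 3-fold gave 20. Windows of 5 Mb gave 32, of which 31 were among the 42, and the 20 nearest members gave 36, of which 35 were.

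Leaving out 1 library at a time, the short-arm median ran from -0.17 to -0.14, the long-arm median from -0.48 to -0.43, the chromosome median from -0.35 to -0.31 and the number departing from 39 to 45. Members called lower ran from 204 to 249 and called higher from 34 to 46. Of the 101 named genes, 2 to 13 lost their call with 1 library left out, the most without sgGPR91 replicate 3, and of those not called ADH6 and KLF3 changed sign. The correlations of deviations between libraries with the same replicate number were 0.146, 0.0169 and 0.0837. Those between different numbers ran from -0.126 to 0.0528. The main fit did not take the numbers as pairs, and whether they are pairs is not settled by these values. Over all genes tested a replicate block gave 2886 lower and 2784 higher, against 2661 and 2560 without it. With the replicate block 249 members were called lower and 46 higher, the chromosome median was -0.34, 40 genes departed, without CCDC110 and NMU, and 4 more named genes were called. Over members that overlap no other row, chosen after seeing the data, the 318 genes had a median of -0.33 and 29 departed. The few reads behind 23 of the 42 genes limit their fold changes.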
